A study of Homo sapiens with 16 samples.

Results

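The genes described here are the aryl hydrocarbon receptor AHR, its DNA-binding partner ARNT, its repressor AHRR and 4 of its known target genes, CYP1A1, CYP1B1, TIPARP and ALDH3A1. They were taken by symbol from the protein-coding genes of the deposited expression tables, and all 7 were found among 58735 genes, of which 19951 are protein-coding. RNA was sequenced from human lung cancer cell lines labelled as lung epithelium. NCI-H1975 cells (genotype given as WT in the labels; a line known for EGFR mutations, one activating and one giving drug resistance) were sequenced after the chloroform parts of Flos Magnoliae, a drug made of dried Magnolia buds (called the fraction from here on), after magnolin, a lignan of these buds, and as controls, with 4 libraries each. Parental HCC827 cells, a line known for an activating EGFR deletion and likewise labelled WT, gave 2 libraries. Afatinib-resistant HCC827 cells were not analysed here. No dose or time of treatment is given in the sources used here, nor what the control cells received. Nothing says whether replicates came from separate cultures, so the p-values cover only how far these libraries differ, which may be technical.

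AHR is a ligand-activated transcription factor that waits in the cytoplasm in a complex with HSP90 and other chaperones. Planar aromatic compounds, many plant constituents and tryptophan metabolites can bind it, after which it enters the nucleus, pairs with ARNT and binds xenobiotic response elements. In lung epithelium the pathway is known for inducing cytochrome P450 enzymes that oxidise components of smoke, and its own targets AHRR and TIPARP restrain it.

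The response element has the core GCGTG, and a longer form is TNGCGTG, which contains the core. Both were searched on both strands in the 250 bases before each RefSeq gene start (build GRCh38.p14), where 5 of the 7 genes had an entry; CYP1B1 and ALDH3A1 were not matched. Of 35116 such windows in the whole table, 32.2% held the core and 4.52% the longer form. The first windows of the 3 matched genes that were higher with the fraction are printed to show where the core lies, with its letters in capitals (CACGC is the core read on the opposite strand). CYP1A1 lies at chr15:74725529-74725778 on the minus strand, TIPARP at chr3:156674340-156674589 and AHRR at chr5:321464-321713, both on the plus strand.
CYP1A1: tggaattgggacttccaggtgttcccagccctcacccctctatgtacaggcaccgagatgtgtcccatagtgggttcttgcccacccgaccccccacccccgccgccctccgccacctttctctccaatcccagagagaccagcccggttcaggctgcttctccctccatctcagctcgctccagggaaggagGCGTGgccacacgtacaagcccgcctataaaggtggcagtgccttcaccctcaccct
TIPARP: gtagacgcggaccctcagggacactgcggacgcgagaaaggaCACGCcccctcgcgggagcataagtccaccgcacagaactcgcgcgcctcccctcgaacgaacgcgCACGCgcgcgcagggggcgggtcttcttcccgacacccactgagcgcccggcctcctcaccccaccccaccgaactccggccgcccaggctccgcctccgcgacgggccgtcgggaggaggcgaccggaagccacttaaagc
AHRR: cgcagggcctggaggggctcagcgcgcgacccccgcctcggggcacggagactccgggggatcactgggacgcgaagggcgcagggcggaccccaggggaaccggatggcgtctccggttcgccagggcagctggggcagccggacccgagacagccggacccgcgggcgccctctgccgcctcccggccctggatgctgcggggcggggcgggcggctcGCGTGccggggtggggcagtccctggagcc

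CYP1A1 held 1 core, with its first base at position -57 from the start. TIPARP held 2 cores, both on the opposite strand, at -208 and -142. AHRR held 1 core at -30, which is also a match of the longer form beginning at -32. A second AHRR start had cores at -247 and -42, whereas the windows of AHR and ARNT and of the other 2 TIPARP starts held none. A match is a description of letters and not of binding. The well-known CYP1A1 enhancer lies further upstream than this window.

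**Figure D1:**
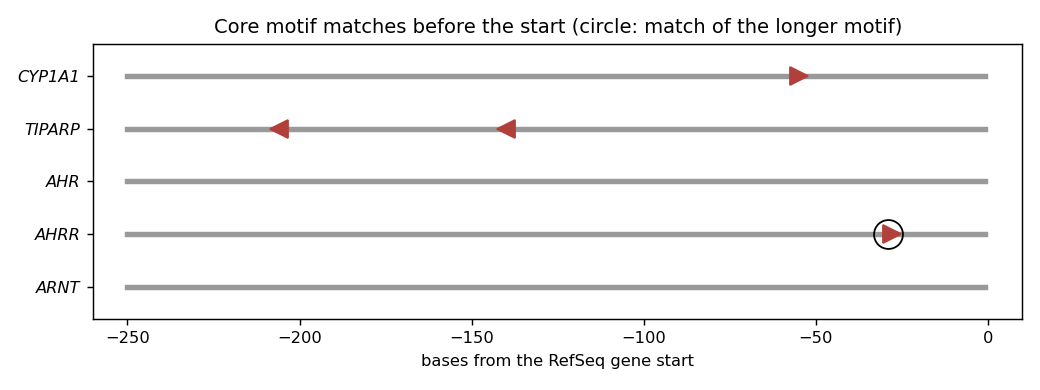
Positions of the response element core in the 250 bases before the RefSeq start of the 5 matched genes (first start of each; x axis, bases from the start). Arrowheads mark core matches and point along their strand, and the circle marks the longer form; CYP1A1 has 1 match, TIPARP 2, AHRR 1, and AHR and ARNT none.

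The authors deposited expression as FPKM, reads per kilobase of gene scaled to the size of the library, in separately normalised tables, one for replicates 1 and 2 of NCI-H1975, one for replicates 3 and 4 and one for HCC827. Libraries held 15.96 to 21.3 M reads in NCI-H1975 and 15.9 to 16.4 M reads in HCC827. Replicates 1 and 2 lay further apart than replicates 3 and 4 in all 3 NCI-H1975 groups. Between replicates 1 and 2, 11.8% to 12.3% of genes differed at least 2-fold, against 2.81% to 3.39% between replicates 3 and 4. The epithelial markers EPCAM, KRT8, KRT18, KRT19 and CDH1 were at 0 in no library, and the leukocyte marker PTPRC was at 0 in 10 of 14 libraries. In replicates 3 and 4 the 5 epithelial markers summed to 352 to 378 FPKM with the fraction, 393 to 398 with magnolin and 551 to 560 in controls. The 5 markers of endothelial, mesenchymal and blood cells summed to 10.6 to 11.0, 16.2 to 16.8 and 23.2 to 30.3 FPKM in the same order, mostly COL1A2 and CDH5, and of the 5 PTPRC was at 0 in most libraries. Sums are carried by the most abundant markers. Between the fraction and magnolin, limma called 2 of the 5 epithelial markers higher with the fraction and 1 lower (adjusted p under 0.05). Of all genes 5.55% and 9.36% were called so. With the replicate number as a block 0 were higher and 1 lower. The order of the sums is thus not that of each marker. In replicates 1 and 2 the epithelial sum reached 907 FPKM with the fraction, 790 with magnolin and 806 in controls, each in replicate 1. In replicate 2 it was 365, 341 and 516 FPKM in that order. The sum of the other markers went the opposite way, at 3.29, 2.10 and 2.94 FPKM in replicate 1 and 20.2, 13.7 and 15.7 in replicate 2. Mitochondrial reads made up 7.04% to 8.17% with the fraction, 6.38% to 6.40% with magnolin and 5.83% to 5.84% in controls of replicates 3 and 4. The part of these differences in the results below was not tested.

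In replicates 3 and 4, where the replicates lay closest, 4 of the 6 testable genes rose with the fraction, CYP1A1, CYP1B1, TIPARP and AHRR, and neither AHR nor ARNT passed the test. Of all 14673 genes tested in that comparison, 19.9% were called, 8.33% as higher and 11.6% as lower (limma on log2(FPKM + 1), Benjamini-Hochberg adjusted p under 0.05). With magnolin 3 of the 6 rose, CYP1A1, CYP1B1 and TIPARP, where 0.627% of all genes were called, 0.252% as higher and 0.375% as lower. Between the fraction and magnolin CYP1A1 alone of the 6 was called, higher with the fraction, where 14.9% of all genes were called, 5.55% as higher and 9.36% as lower. Both comparisons with control use the same control libraries. The median log2 change over the 14673 genes was -0.01, 0.01 and -0.02 in the same order of comparisons. These are bulk samples, so fewer cells of a type and less RNA per cell cannot be told apart.

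**Figure D2:**
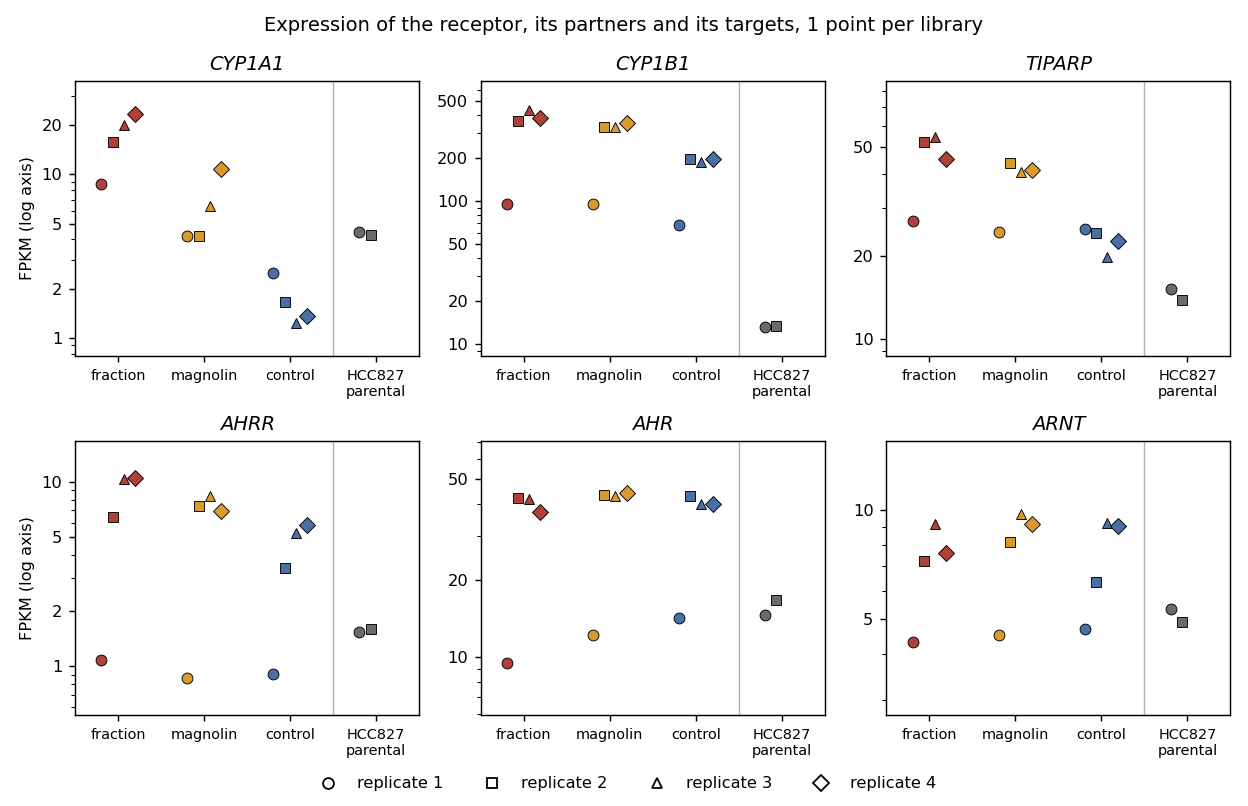
FPKM (log axis) of 6 genes in each library, with the fraction, magnolin and control groups of NCI-H1975 to the left of the line and parental HCC827 to its right; marker shapes give the replicate number. Within replicates 1 and 2 and within replicates 3 and 4, CYP1A1 is ordered fraction, magnolin, control without overlap, while ARNT points of the treated groups overlap the controls, AHR with magnolin lies just above the controls in replicates 3 and 4, and replicate 1 is low for both genes.

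AHR, the receptor (ENSG00000106546, chromosome 7, 16916359 to 17346152, hg38), had 41.8 and 37.1 FPKM in replicates 3 and 4 with the fraction, 43.0 and 44.1 FPKM with magnolin and 39.99 and 40.04 FPKM in controls. The fraction libraries lay on either side of the controls, and both magnolin libraries lay above them. The log2 changes were -0.02 (SE 0.08, 95% interval -0.21 to 0.17) for the fraction over control and 0.12 (SE 0.08, -0.07 to 0.31) for magnolin over control, with adjusted p-values of 0.873 and 0.562 by limma. The fraction over magnolin, -0.14 (SE 0.08), did not pass either (adjusted p = 0.269), but was called without fraction replicate 3 (-0.22, adjusted p = 0.0491). Changes of AHR mRNA within these intervals were not detectable with these libraries. AHR in replicates 1 and 2 had 9.47 and 42.1 FPKM with the fraction, 12.2 and 43.1 FPKM with magnolin and 14.2 and 42.8 FPKM in controls. The groups thus overlapped, and replicate 2 exceeded replicate 1 by 4.45-fold, 3.53-fold and 3.01-fold in the same order, more than any pair of groups differed at one replicate number. AHR overlaps 5 other gene records, none above 0.729 FPKM.

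ARNT, the partner that AHR shares with other PAS-domain factors such as HIF1A (ENSG00000143437, chromosome 1, 150809705 to 150876768), had 9.18 and 7.63 FPKM in replicates 3 and 4 with the fraction, 9.74 and 9.16 FPKM with magnolin and 9.25 and 9.08 FPKM in controls. The ranges overlapped for magnolin, while both fraction libraries lay below the higher control and one of them below both controls. The log2 changes over control were -0.12 (SE 0.10, adjusted p = 0.456 by limma) with the fraction and 0.04 (SE 0.10, adjusted p = 0.903) with magnolin. ARNT in replicates 1 and 2 had 4.34 and 7.26 FPKM with the fraction, 4.53 and 8.16 FPKM with magnolin and 4.70 and 6.35 FPKM in controls, with overlapping groups and replicate 1 lowest in each.

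AHRR, a repressor that competes with AHR for ARNT and is itself a target (ENSG00000063438, chromosome 5, 304176 to 438291), had 10.3 and 10.5 FPKM in replicates 3 and 4 with the fraction, 8.39 and 6.99 FPKM with magnolin and 5.31 and 5.87 FPKM in controls. The 3 groups did not overlap. AHRR rose with the fraction by a log2 change of 0.79 (SE 0.10, 95% interval 0.54 to 1.05, adjusted p = 0.00556 by limma). With magnolin the change was 0.40 (SE 0.10, 0.14 to 0.65) and did not pass the test (adjusted p = 0.182), nor did the fraction over magnolin (0.40, SE 0.10, adjusted p = 0.0537). AHRR in replicates 1 and 2 had 1.08 and 6.46 FPKM with the fraction, 0.865 and 7.38 FPKM with magnolin and 0.910 and 3.42 FPKM in controls, so that replicate 1 was near 1 FPKM in each group. The treated-to-control ratios at the same number were 1.18, 1.89, 1.95 and 1.78 with the fraction and 0.951, 2.16, 1.58 and 1.19 with magnolin, for replicates 1 to 4. AHRR lies on the same strand as the overlapping gene PDCD6, which had 7.53 to 15.1 FPKM in NCI-H1975. The processed pseudogene AC010442.2 overlaps it on that strand too, with 1.13 to 2.49 FPKM in replicates 3 and 4 and at most 0.787 in replicates 1 and 2. The split of reads among these genes is uncertain.

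CYP1A1, the most inducible of the AHR-driven cytochrome P450 enzymes (ENSG00000140465, chromosome 15, 74719542 to 74725610), had 20.2 and 23.3 FPKM in replicates 3 and 4 with the fraction, 6.43 and 10.8 FPKM with magnolin and 1.24 and 1.37 FPKM in controls. The groups did not overlap and every treated library lay well above both controls. The log2 change with the fraction was 3.30 (SE 0.22, 95% interval 2.77 to 3.83, adjusted p = 0.00081 by limma), which ranked 1 of 14673 genes by size among rises. With magnolin it was 2.03 (SE 0.22, adjusted p = 0.0263), which ranked 6. On untransformed FPKM the ratio at the same replicate number was 16.3 and 17.0 with the fraction and 5.18 and 7.93 with magnolin, larger than the fitted changes because the 1 FPKM added before the logarithm weighs on the low controls. The fraction exceeded magnolin by 1.27 (SE 0.22, 0.75 to 1.80, adjusted p = 0.0183), and by 3.13-fold and 2.15-fold at the same number. Without fraction replicate 4 that last call was lost (adjusted p = 0.0597).

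In replicates 1 and 2, CYP1A1 had 8.75 and 15.7 FPKM with the fraction, 4.18 and 4.21 FPKM with magnolin and 2.49 and 1.66 FPKM in controls. The order of the groups was as in replicates 3 and 4, again without overlap. Without a replicate block limma called none of 13103 genes in any of the 3 comparisons of this table (107, 255 and 93 genes at an unadjusted p under 0.05 for fraction over control, magnolin over control and fraction over magnolin; 0 by limma voom on rebuilt reads in each). With the replicate number as a block, CYP1A1 rose with the fraction by 2.07 (SE 0.23, adjusted p = 0.00104) and exceeded its magnolin level by 1.30 (SE 0.23, adjusted p = 0.0378), where 0.183% of all genes were called in each comparison. Its change with magnolin, 0.77 (SE 0.23), did not pass the blocked test (adjusted p = 0.138), and of the 0.992% of genes called there none was one of the 6.

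In CYP1A1, as in TIPARP, replicate 1 was the highest of the 4 control libraries and the lowest of the 4 fraction libraries, although levels are not strictly comparable between the tables. Fraction over control was 3.51-fold, 9.47-fold, 16.3-fold and 17.0-fold for replicates 1 to 4, and magnolin over control was 1.67-fold, 2.54-fold, 5.18-fold and 7.93-fold. The change in replicates 3 and 4 exceeded that in replicates 1 and 2 by 1.23 (SE 0.41) with the fraction and by 1.26 (SE 0.41) with magnolin on the log2 scale, and neither difference passed adjustment over 12539 genes (limma interaction term, adjusted p = 0.879 and 0.999). CYP1A1 rested on 74 to 168 reads per control library and 574 to 1321 per fraction library, and no annotated gene overlaps it.

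**Figure D3:**
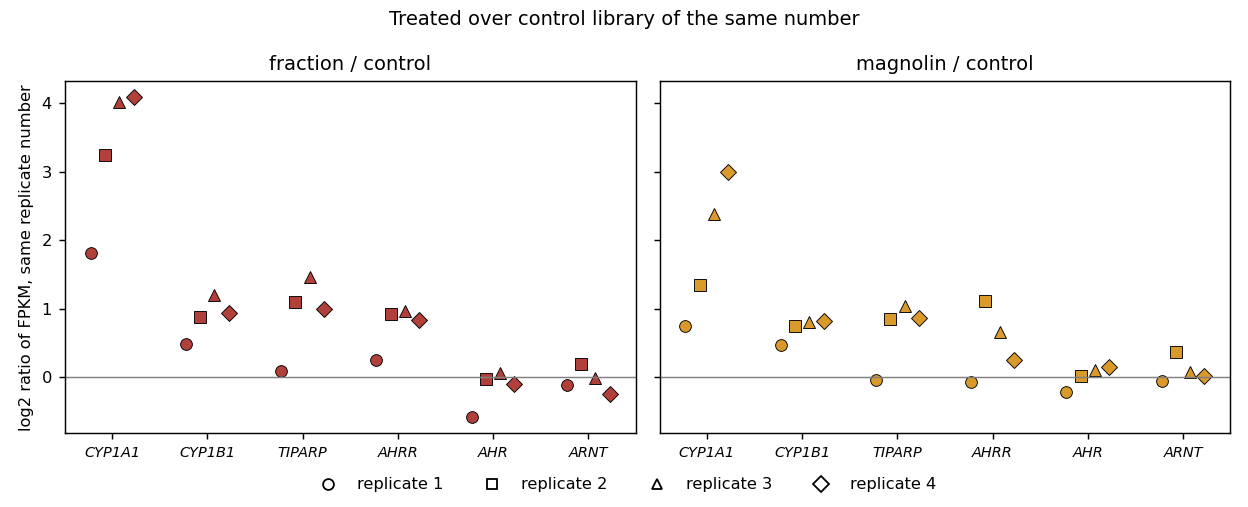
Log2 ratio of FPKM of each treated library over the control library of the same replicate number, for the fraction (left) and magnolin (right); marker shapes give the number and the line marks no change. CYP1A1 and CYP1B1 are above 0 in all 8 pairs, TIPARP and AHRR are lowest in replicate 1, and AHR and ARNT lie on both sides of 0.

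CYP1B1, which oxidises oestrogens and aromatic hydrocarbons and had the highest FPKM of the 7 genes in NCI-H1975 (ENSG00000138061, chromosome 2, 38066973 to 38109902), had 431 and 380 FPKM in replicates 3 and 4 with the fraction, 330 and 350 FPKM with magnolin and 189 and 198 FPKM in controls. The groups did not overlap, and the lowest treated library lay well above the highest control. The log2 change was 1.06 with the fraction (SE 0.08, 95% interval 0.86 to 1.26, adjusted p = 0.00128 by limma) and 0.81 with magnolin (SE 0.08, 0.61 to 1.01, adjusted p = 0.0239). The fraction over magnolin, 0.25 (SE 0.08, 0.05 to 0.45), did not pass (adjusted p = 0.0942). CYP1B1 in replicates 1 and 2 had 95.7 and 364 FPKM with the fraction, 95.1 and 332 FPKM with magnolin and 68.6 and 199 FPKM in controls. Replicate 1 of every group lay below replicate 2 of every group, so the groups overlapped, although at each number both treated libraries lay above the control (1.39-fold and 1.83-fold with the fraction, 1.38-fold and 1.67-fold with magnolin). The overlapping genes RMDN2, RMDN2-AS1 and CYP1B1-AS1 had at most 1.07 FPKM.

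TIPARP, a mono-ADP-ribosyltransferase that targets AHR for degradation (ENSG00000163659, chromosome 3, 156673235 to 156706770), had 54.5 and 45.2 FPKM in replicates 3 and 4 with the fraction, 40.6 and 41.3 FPKM with magnolin and 19.8 and 22.8 FPKM in controls. The groups did not overlap. The log2 change was 1.19 with the fraction (SE 0.11, 95% interval 0.91 to 1.46, adjusted p = 0.0023 by limma) and 0.91 with magnolin (SE 0.11, 0.64 to 1.19, adjusted p = 0.0372), and the fraction over magnolin, 0.27 (SE 0.11), did not pass (adjusted p = 0.158). TIPARP in replicates 1 and 2 had 26.8 and 52.2 FPKM with the fraction, 24.4 and 43.7 FPKM with magnolin and 25.2 and 24.4 FPKM in controls. Replicate 2 of both treated groups was high, whereas replicate 1 lay beside the controls (1.06-fold with the fraction and 0.970-fold with magnolin). Between the control libraries of that table, replicate 2 over replicate 1 was 0.968-fold for TIPARP, against 2.89-fold for CYP1B1, 3.01-fold for AHR and 3.76-fold for AHRR.

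ALDH3A1, an aldehyde dehydrogenase and a target in other epithelial cells, was at 0 to 0.0407 FPKM in every library, from 0 to 3 reads. This is at or below the 3 reads that a count of 0 allows, so a level was not detectable at this depth, and no treatment change or ratio is reported.

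**Figure D4:**
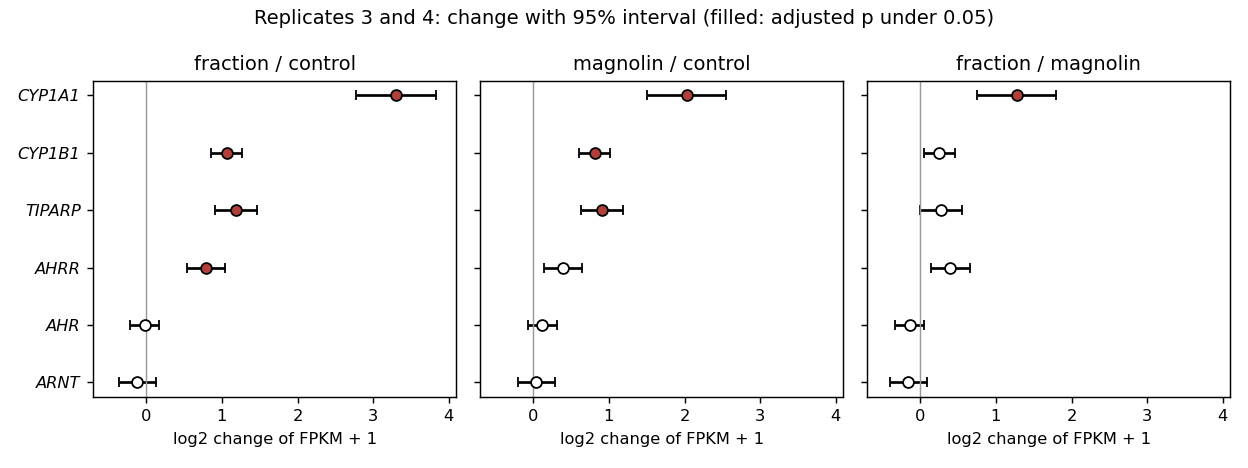
Log2 change of FPKM + 1 in replicates 3 and 4 with 95% intervals (limma) for the fraction over control, magnolin over control and the fraction over magnolin; filled points passed an adjusted p of 0.05. CYP1A1, CYP1B1, TIPARP and AHRR are filled for the fraction over control, CYP1A1, CYP1B1 and TIPARP for magnolin over control and CYP1A1 alone for the fraction over magnolin.

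The magnolin calls in replicates 3 and 4 depended on single libraries. When replicate 3 or replicate 4 of either the magnolin or the control group was left out, limma called no gene at all in that comparison, and the 3 targets had adjusted p-values of 0.0545 to 0.290 with log2 changes of 1.69 to 2.36 for CYP1A1, 0.77 to 0.85 for CYP1B1 and 0.82 to 1.01 for TIPARP. With the replicate number as a block, CYP1A1 passed (adjusted p = 0.0377), where 0.293% of genes were called, and CYP1B1 (0.0605) and TIPARP (0.0810) did not. The 4 calls with the fraction were made in every such fit.

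Over all 4 replicates, with a term for the table, CYP1A1 was the 1 gene of 12539 called with the fraction, 0.00798% of genes (log2 change 2.68, SE 0.28, adjusted p = 0.0147 by limma). CYP1B1 (0.87, SE 0.47), TIPARP (0.88, SE 0.23) and AHRR (0.62, SE 0.48) did not pass, with adjusted p-values of 0.541, 0.326 and 0.686. With the replicate block 0.542% of genes were called, CYP1A1 (adjusted p = 0.00838) and CYP1B1 (0.0261) among them. Without the 3 libraries of replicate 1, a choice made after the data were seen, all 4 targets were called with the fraction, where 2.34% of genes were called. The CYP1A1 call itself was lost without control replicate 2, 3 or 4 or fraction replicate 3 or 4, with adjusted p-values of 0.0585 to 0.117.

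Over all 4 replicates no gene passed for magnolin over control (565 at an unadjusted p under 0.05; 0 called by limma voom). CYP1A1 changed by 1.40 (SE 0.28), CYP1B1 by 0.71 (SE 0.47), TIPARP by 0.65 (SE 0.23) and AHRR by 0.42 (SE 0.48), with adjusted p-values of at least 0.801. With the replicate block no gene passed either. The adjusted p-values by limma were then 0.204 for CYP1A1, 0.161 for CYP1B1 (SE 0.12), 0.318 for TIPARP and 0.423 for AHRR. Without replicate 1, CYP1A1 (adjusted p = 0.0448), CYP1B1 (0.0314) and TIPARP (0.0314) were called, where 0.125% of genes were.

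Of 11 further AHR targets, 6 were expressed enough to be tested. In replicates 3 and 4, 4 of the 6 rose with the fraction and none fell, against 8.33% and 11.6% of all genes. This list and those below were chosen with earlier results of these data known, so such counts are not independent support. SLC7A5, an amino acid transporter, had 388 and 438 FPKM with the fraction, 261 and 268 FPKM with magnolin and 108 and 122 FPKM in controls, the highest change in the list (1.83, SE 0.09, adjusted p = 0.000404 by limma). NQO1, a quinone reductase (0.50, SE 0.06), ABCG2, a drug efflux pump (0.83, SE 0.11), and SERPINB2, a protease inhibitor (0.51, SE 0.11), also passed, while NFE2L2 and EREG did not. With magnolin 3 of the 6 rose, against 0.252% of all genes, SLC7A5 (1.20, SE 0.09), ABCG2 (1.03, SE 0.11) and SERPINB2 (0.85, SE 0.11), and ABCG2 was lost with the replicate block (adjusted p = 0.0604). The fraction over magnolin passed for neither ABCG2 nor SERPINB2 (-0.21 and -0.34, adjusted p = 0.235 and 0.0805), and in replicates 1 and 2 their means ran the other way with overlapping libraries. The list's median change was 0.51 with the fraction and 0.60 with magnolin, against -0.01 and 0.01 over all genes. CYP1A2, CYP2S1, UGT1A1, UGT1A6 and GSTA2 were too low to test.

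All 10 genes of the AHR complex and its cofactors were tested in replicates 3 and 4, and 3 fell with the fraction and none rose, against 11.6% and 8.33% of all genes. ARNT2, a paralog of ARNT, had 0.680 and 0.912 FPKM with the fraction, 1.92 and 2.09 FPKM with magnolin and 2.51 and 2.74 FPKM in controls (fraction over control -1.02, SE 0.14, adjusted p = 0.00673). The chaperones HSP90AB1 (-0.38, SE 0.07, adjusted p = 0.0177) and HSP90AA1 (-0.43, SE 0.11, adjusted p = 0.0437) fell too, the second not with the replicate block (adjusted p = 0.0704), and HSP90 paralogs may share reads. With magnolin none of the 10 was called, against 0.627% of all genes. Between the treatments 4 were lower with the fraction, against 9.36% of all genes: these 3 and the cochaperone PTGES3 (-0.61, SE 0.09, adjusted p = 0.0147). The means of replicates 1 and 2 ran the other way for all 4, with overlapping libraries and no call, ARNT2 averaging 1.44 ± 0.616 FPKM with the fraction and 0.933 ± 0.699 FPKM with magnolin (SD, n = 2 each). ARNT2 controls averaged 1.33 ± 1.14 FPKM there, so its fall against control was not seen in that table. HSP90AA1 and HSP90AB1 with the fraction averaged below their controls there, with overlapping libraries. In replicates 3 and 4 both ARNT2 fraction libraries lay below 1 FPKM, so it was tested only through the other groups. The list's median in replicates 3 and 4 was -0.18 with the fraction and 0.03 with magnolin.

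The kynurenine pathway, whose enzymes make and use tryptophan-derived AHR ligands, had 5 of 10 genes tested in replicates 3 and 4 and none called against control in either treatment. Of all genes 19.9% were called there with the fraction and 0.627% with magnolin, so no call among 5 genes says little. KYNU was lower with the fraction than with magnolin (-0.49, SE 0.10, adjusted p = 0.0276, and 0.0519 with the replicate block). Of the other PAS partners of ARNT 2 of 7 were tested, and HIF1A, the hypoxia-inducible factor, had 84.8 and 99.9 FPKM there with the fraction, 117 and 120 FPKM with magnolin and 137 and 138 FPKM in controls. In that table it fell with the fraction (-0.57, SE 0.09, adjusted p = 0.00986) and was lower than with magnolin (-0.36, SE 0.09, adjusted p = 0.048, and 0.0716 with the replicate block). In the other table its 2 libraries with the fraction, at 120 and 152 FPKM, lay above the 2 with magnolin, both at 107 FPKM, and overlapped the controls, at 136 and 177 FPKM. Of the other xenobiotic receptors and their targets, 2 of 7 were tested, POR and RXRA, and neither was called. In replicates 3 and 4 the shares of all genes called were 19.9% for the fraction over control, 0.627% for magnolin over control and 14.9% for the fraction over magnolin. No gene of these lists was called in replicates 1 and 2, with or without the replicate block, where at most 0.992% of all genes were called.

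**Figure D5:**
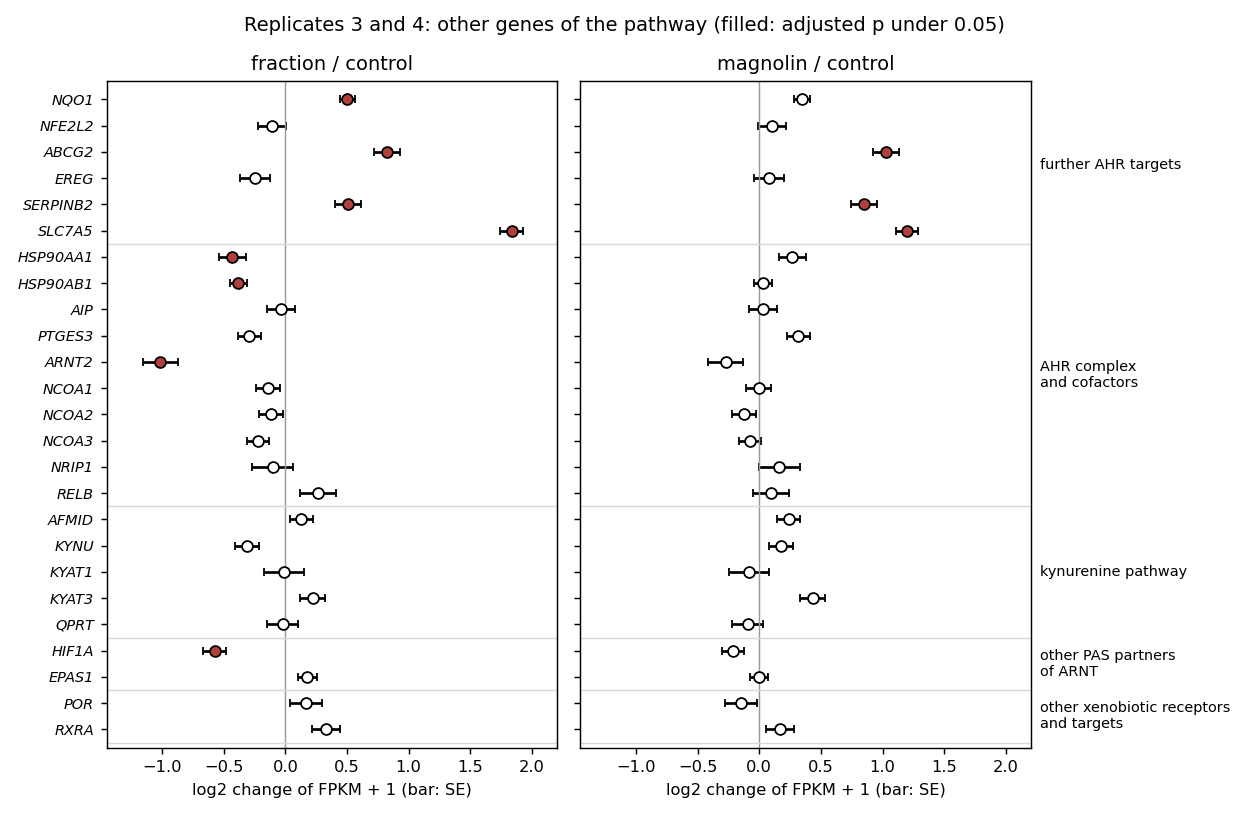
Log2 change of FPKM + 1 in replicates 3 and 4 of the tested genes of the 5 pathway lists, for the fraction over control (left) and magnolin over control (right); bars are SE and filled points passed an adjusted p of 0.05. Filled points to the right of 0 are all further AHR targets, and filled points to the left are ARNT2, both HSP90 genes and HIF1A, with the fraction.

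Across the 12 NCI-H1975 libraries, with each table centred on its mean, the genes most like CYP1A1 among 9617 protein-coding genes were MOB3A, HADHB, FAM86C1, SLC3A2 and ANGPTL4 (Pearson's r 0.912 to 0.920). SLC3A2 is the heavy chain that pairs with SLC7A5, and ANGPTL4 is a secreted inhibitor of lipoprotein lipase. SLC3A2 averaged 101 ± 17.8 FPKM with the fraction, 67.7 ± 1.64 with magnolin and 38.8 ± 2.29 in controls of replicates 3 and 4 (SD, n = 2 each). In replicates 1 and 2 it averaged 77.7 ± 4.79, 76.4 ± 0.755 and 62.5 ± 3.57 FPKM in the same order. It was picked for its likeness to CYP1A1, so a shared order of groups is no separate result. Of the other members TIPARP was nearest to CYP1A1 (r = 0.848, place 22), followed by CYP1B1 (0.533, place 668) and AHRR (0.403, place 1210). AHR and ARNT were near 0 (-0.01 and -0.06). Among the genes most like AHR were PPIC, ATF6, WDR48 and GALC (r 0.988 to 0.991). ARNT (0.922), AHRR (0.864) and CYP1B1 (0.813) were at places 356, 793 and 1181, so many other genes were nearer to AHR. These correlations are descriptions. All points share 2 tables, and for AHR and its nearest genes the main difference among them is replicate 1.

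In parental HCC827 cells AHR had 14.6 and 16.8 FPKM, ARNT 5.34 and 4.92 FPKM and AHRR 1.54 and 1.59 FPKM. CYP1A1 had 4.43 and 4.29 FPKM, CYP1B1 13.3 and 13.4 FPKM and TIPARP 15.2 and 13.8 FPKM, and ALDH3A1 had no read. In untreated NCI-H1975 cells the ranges over 4 libraries were 14.2 to 42.8 FPKM for AHR, 4.70 to 9.25 for ARNT and 0.910 to 5.87 for AHRR. They were 1.24 to 2.49 FPKM for CYP1A1, 68.6 to 199 for CYP1B1 and 19.8 to 25.2 for TIPARP. HCC827 thus lay above all 4 NCI-H1975 controls for CYP1A1 and below all 4 for CYP1B1 and TIPARP, and within their range for AHR, ARNT and AHRR. That last range rests on control replicate 1: the other 3 controls had 39.99 to 42.8 FPKM for AHR, 6.35 to 9.25 for ARNT and 3.42 to 5.87 for AHRR, all above HCC827. The tables were normalised separately and hold 1 line each, so the line and the table cannot be told apart, and no ratio or test was made.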

How the data were processed

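Per the labels' protocols, RNA was quality-controlled on an Agilent bioanalyzer and NEB libraries were built by an ordinary or a strand-specific method; which one is not stated. The authors deposited FPKM per gene; the build was hg38, per the submitters' processing notes, and neither aligner nor counter is given in the sources used here. Identifiers and coordinates of all 58735 genes matched GENCODE 29. FPKM multiplied by length fell on whole reads for 100% of values up to 2000 reads (tolerance 0.05), so reads were rebuilt for depth and for limma voom. Median-ratio factors of the deposited values were already equal within each NCI-H1975 table. The smallest chi-square per gene between replicates was 3.73, so no pair agreed within sampling noise. Columns with names matching no sample label (2) were not used.

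Within each table, genes reaching 1 FPKM in 2 or more libraries were tested as log2(FPKM + 1) in limma 3.58.1 (R 4.3.3, empirical Bayes with a mean trend, 3 groups sharing 1 spread) with Benjamini-Hochberg adjustment at 0.05; fold changes on that scale understate those of low genes. Joint fits held a table term or its interaction with treatment and tested genes passing in both tables. The code was tested on simulated data, drawn as independent libraries without a shared replicate effect, so that test does not cover such an effect.

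Deviations from the group means of libraries with the same number correlated at 0.263 to 0.871 over 4 replicates (12 pairs, own number best in 9). The tables were not centred for this, so a difference between tables shared by the groups enters these values, and they cannot show pairing by number. The fits reported above held no replicate term unless a block is named, and the block was an alternative setting. Within replicates 1 and 2 the values were 0.742 to 0.781 and within replicates 3 and 4 -0.03 to 0.03, so in the second table there was no sign of pairing; the labels give only numbers. Values from blocked fits are printed where a call changes.

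The 7 genes and the pathway lists were chosen with earlier results of these data known. Beside the 7 genes, up to 4 called genes per list with the smallest adjusted p against control in replicates 3 and 4 are named, and the 5 genes most correlated with CYP1A1 and with AHR among those with mean FPKM of at least 2, of which 1 is not reported here; KYNU, PTGES3 and the uncalled or untested genes were named after their values were seen. Promoter sequences are from RefSeq. Other settings tried were a pseudocount of 0.1, no filter, median-ratio and total-read scaling, limma voom, the block and leaving out libraries. Figures used matplotlib 3.10.9.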

Additional observations from a re-analysis of the deposited data

Results flagged for a closer look

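In 8 of 21 groups of 4 NCI-H1975 libraries, 1 library lay apart from the other 3 (gap over range past Dixon's critical value). That value marks about 1 in 20 independent groups of normally spread values. Here the groups join separately normalised tables and the genes share the same libraries, so that rate is no measure of chance for them. In 6 of the 8 marked groups the library apart was replicate 1, the lowest. AHR in replicate 1 was at 9.47 FPKM with the fraction (gap over range 0.847), 12.2 with magnolin (0.965) and 14.2 in controls (0.900), against 37.1 to 44.1 FPKM in the other 9 libraries. CYP1B1 in replicate 1 was at 95.1 FPKM with magnolin (0.921), against 330 to 350, and at 68.6 FPKM in controls (0.926), against 189 to 199. TIPARP in replicate 1 with magnolin was at 24.4 FPKM (0.841), against 40.6 to 43.7. ALDH3A1 was marked for 3 reads in magnolin replicate 1 and 1 read in control replicate 4, with 0 in the other libraries of those groups (1.0 in both). Any group with 1 library above 0 has this value, so both marks carry no information.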

How the results depend on the processing

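Of 459 recomputed changes of single genes (32 results), 415 kept their direction and their side of the threshold, 25 lost a call, 15 gained one and 4 changed sign. The 4 fraction calls in replicates 3 and 4 (CYP1A1, CYP1B1, TIPARP, AHRR) were made under all alternatives run. Leaving out a library, the number of these genes called ranged from 0 to 3 for magnolin over control in replicates 3 and 4, from 1 to 2 for the fraction over magnolin there (CYP1A1 and AHR without fraction replicate 3, CYP1B1 in place of CYP1A1 without fraction replicate 4), and from 0 to 1 for the fraction over control in all 4 replicates; without the 3 libraries of replicate 1 it was 4 there and 3 for magnolin. With no filter it was 0 in each of these 3 comparisons (adjusted p of CYP1A1 0.140, 0.0774 and 0.147). With the replicate block it was 1 for the fraction over control and 1 for the fraction over magnolin in replicates 1 and 2, 1 for magnolin over control in replicates 3 and 4, and 2 for the fraction over control in all 4 replicates; it changed no other such count. For the fraction over magnolin in replicates 3 and 4 it was 4 by limma voom and 2 with FPKM scaled to all rebuilt reads, an alternative added after the data were seen. Leaving out a library turned 4 uncalled changes: ARNT with magnolin in replicates 3 and 4 (-0.00089 to 0.079), ARNT (-0.24 to 0.0018) and AHR (-0.10 to 0.061) with the fraction there, and AHRR with magnolin in all 4 replicates (-0.014 to 0.80). The cause was not tested. Over all alternatives the genes called in replicates 3 and 4 were 728 to 4115 for the fraction over control (2918 as reported), 0 to 575 for magnolin (92) and 226 to 3330 for the fraction over magnolin (2188). In replicates 1 and 2 they were 0 to 24, 0 to 130 and 0 to 24 (0 in each as reported), and in all 4 replicates 0 to 280 (1) with the fraction and 0 to 15 (0) with magnolin. The difference between tables gave 0 to 78 genes (1) with the fraction and 0 to 29 (0) with magnolin. Where 1 library remained in a group, it was assumed to vary like the other groups. Resistant against parental HCC827 cells was not run, since the columns match no label. CYP1A1 in controls and ARNT2 are limited by low counts at this depth.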
